A study of Arabidopsis thaliana with 12 samples.

Results

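Regions of open chromatin at the ends of Arabidopsis thaliana transcripts were followed through the first hours of root tip regeneration. A region was taken when the authors' annotation in the 14 h comparison table began with TTS, HOMER's label for a transcription termination site, and 25078 of the 136930 annotated regions met that rule. The deposited count sets hold 156035 different regions in all. Of the transcription-end regions, 17842 are in the 2.5 h set, 25078 in the 14 h set and 18349 in the 16 h and uncut sets, and 17825 are in all 4 sets. Within the 14 h set the choice used position alone and no read count. An end outside that set, which depends on where peaks were called, could not enter.

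ATAC-seq uses a transposase that inserts into DNA not covered by nucleosomes, so the reads over a region report how accessible it is. Transcript ends carry the signals for cleavage and polyadenylation, and in compact plant genomes they often lie close to the start or end of the next gene. HOMER places a region in this class by its distance to an annotated transcript end, so a member can lie in the body of a neighbouring gene. In Arabidopsis some ends are also start points of antisense transcripts, as at FLC and DOG1; neither gene had an end region here.

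The series holds 12 libraries, 3 for each of 4 groups. The regenerating groups were roots of the line MP::MP-GFP, which carries a GFP fusion of MONOPTEROS (MP), an auxin response transcription factor, under the MP promoter, at 2.5 h, 14 h and 16 h after about 130 µm of the tip had been excised. GFP-positive nuclei were sorted from about 200 µm of tissue above the cut, 1000 per library and 2000 in 16 h replicate 3. The uncut group was Col-0, the wild type, with 50000 DAPI-stained nuclei per library. Plant line, sorted nuclei and number of nuclei change together with excision in each comparison with uncut roots, so their parts in those differences cannot be told apart. All roots came from seedlings 7 days after sowing. The labels do not say whether replicates were separate batches of plants, so p-values measure the spread between libraries, which may be technical.

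The deposited counts sum to about 1832870 to 4776380 reads per library at 2.5 h, 10705400 to 17331300 reads at 14 h, 1437740 to 2350250 reads at 16 h and 22464000 to 31775600 reads in uncut roots. At the median transcription-end region this meant 29, 18 and 10 reads at 2.5 h, 69, 71 and 113 reads at 14 h, 13, 17 and 11 reads at 16 h, and 209, 172 and 156 reads in uncut roots. No read was found in 24.6%, 24.1% and 34.1% of these regions at 2.5 h, in 3.93%, 1.37% and 1.55% of them at 14 h, in 2.48%, 3.85% and 3.25% at 16 h, and in 0% in each uncut library. Counts over these regions correlated between replicates with a Spearman rho of 0.268 to 0.302 at 2.5 h, 0.504 to 0.615 at 14 h, 0.449 to 0.480 at 16 h and 0.946 to 0.959 in uncut roots. Replicates also spread beyond counting error. Between pairs of replicates the chi-square per degree of freedom was 15.8 to 22.4 at 2.5 h and 13.9 to 21.4 at 14 h. At 16 h it was 3.09 to 4.53, and in uncut roots 2.14 to 3.85. The regenerating libraries, and those at 2.5 h most, were thus the less precise side of each comparison with uncut roots.

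The transcription-end regions were short, and the transcription start nearest to them was mostly that of a gene other than the one that ended there. Their median width was 119 bp (quartiles 73 and 196 bp), against 103 bp for regions annotated to promoters and 131 bp for exons. They belonged to the ends of 16369 genes, of which 10077 (61.6%) had 1 region, 4569 had 2, 1356 had 3 and 367 had 4 or more, up to the 9 regions of AT1G22660. The gene ending there was protein coding for 22487 regions (89.7%), a long non-coding RNA gene for 1734, a tRNA gene for 226 and a microRNA gene for 86. By the authors' distances, the nearest transcription start was that of another gene upstream of the region in 15141 cases (60.4%, median 698 bp), that of the gene itself in 7332 (29.2%, median 1614 bp), and a start lying ahead of the region in 2233 (8.90%, median −1490 bp). With strand taken from the sign of those distances and gene order from RefSeq, 10894 regions (43.4%) ended convergently with the next gene and 7085 (28.3%) in tandem with it, and 7099 could not be placed. Members of 1 gene are neighbours on the chromosome and are not independent of each other.

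Transcription-end regions took nearly the same share of the reads in every library. Over the regions shared by all 4 count sets they took 19.7%, 19.5% and 19.4% of reads at 2.5 h. Their share was 19.4%, 19.5% and 19.4% in the libraries of 14 h, 19.1%, 19.5% and 19.2% in those of 16 h, and 18.6%, 18.9% and 18.8% in uncut roots. Every regenerating library was above every uncut library. The regenerating libraries averaged 19.4% ± 0.187 (SD, n = 9) and the uncut libraries 18.8% ± 0.153 (SD, n = 3), a difference of 0.644 percentage points with a 2-sided exact permutation p of 0.00909, the smallest that 220 splits allow, and 0.127 after adjustment over 14 tests. That adjusted p is not under 0.05, but no outcome of these 14 tests could have been. The test of 9 libraries against 3 cannot go below 0.00909, and with 3 libraries against 3 no exact test can go below 0.10. The correction therefore decides nothing here. When each library's own count set was used instead, the mean difference was 0.147 percentage points over all regenerating libraries, but the times differed in sign, with −1.27 at 2.5 h, 1.90 at 14 h (0.673 over the shared regions) and −0.19 at 16 h.

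Other genic classes and intergenic regions differed in share too. Exon regions took 46.3% to 47.7% of reads in regenerating libraries and 44.2% to 44.8% in uncut libraries, while intergenic regions took 8.98% to 11.6% and 13.4% to 15.0%. Promoter regions took 20.3% to 23.0% in regenerating libraries and 20.4% to 21.0% in uncut libraries, which overlap. The log2 ratio of reads at ends to reads at promoters ranged from −0.24 to −0.07 in regenerating libraries and from −0.16 to −0.13 in uncut libraries, with a mean difference of −0.0020 (2-sided exact permutation p = 0.991). That mean joins times that lay on either side of uncut roots. The difference from uncut roots was 0.05 at 2.5 h (exact permutation p = 0.1, the smallest that 3 against 3 allow), where all 3 libraries lay above the uncut ones, −0.05 at 14 h (exact permutation p = 0.2) and −0.0059 at 16 h (exact permutation p = 0.9). At 14 h against 2.5 h it was −0.10 (exact permutation p = 0.1), and after adjustment over the 14 tests the smallest of these was 0.233. Per length, the median transcription-end region stood at 38.5 CPM per kb at 2.5 h, 61.5 at 14 h, 59.0 at 16 h and 60.1 in uncut roots, where CPM is the read count scaled to the size of the library. The median promoter region stood at 37.3 CPM per kb at 2.5 h, 65.9 at 14 h, 61.0 at 16 h and 61.2 in uncut roots.

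**Figure D1:**
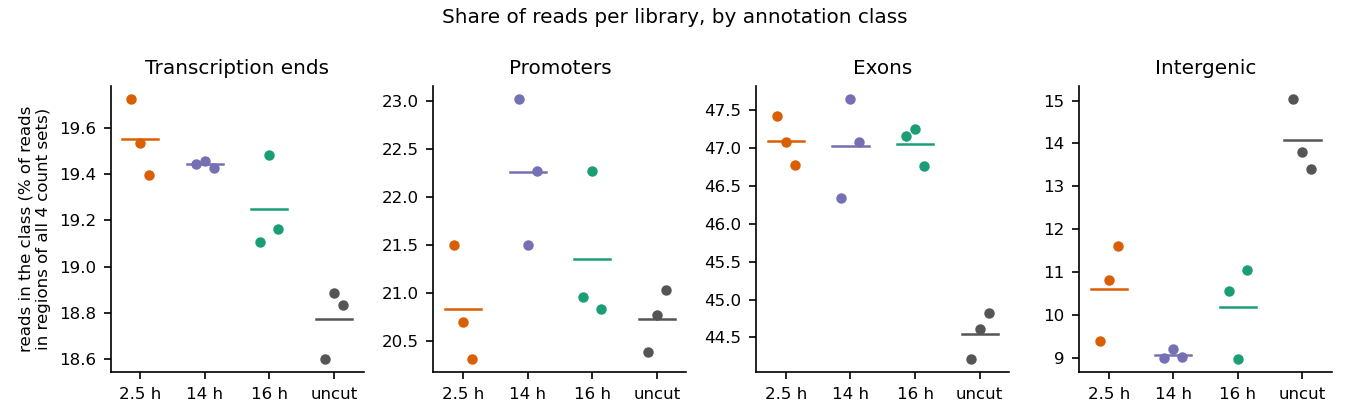
Share of reads (%) in regions annotated to transcription ends, promoters, exons and intergenic DNA, over regions in all 4 count sets; each point is a library, grouped as 2.5 h, 14 h, 16 h and uncut, and each line is a group mean. Transcription ends took 19.1% to 19.7% of reads in the 9 regenerating libraries and 18.6% to 18.9% in the 3 uncut libraries, and intergenic regions took fewer reads in every regenerating library than in any uncut library.

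The region that was higher at every regenerating time was at the end of AT2G41600, next to a Ta11-like non-LTR retrotransposon, AT2G41590, on chromosome 2 (TAIR10). The region at 17343640 to 17343807 had 31.7, 23.7 and 24.7 CPM at 2.5 h, 19.4, 30.4 and 28 CPM at 14 h, and 35.7, 38.1 and 37.0 CPM at 16 h, against 7.11, 7.27 and 6.08 CPM in uncut roots. All 9 regenerating libraries lay well above the 3 uncut ones, without overlap. The log2 fold change against uncut roots was 1.98 ± 0.31 at 2.5 h (SE, edgeR adjusted p = 0.0173), 1.90 ± 0.24 at 14 h (adjusted p = 0.00370) and 2.41 ± 0.23 at 16 h (adjusted p = 0.000175). A second region of the same end, at 17344234 to 17344701, had 63.5, 86.8 and 50.6 CPM at 2.5 h, 62.9, 71.2 and 61.7 CPM at 14 h, 78.3, 65.3 and 90.3 CPM at 16 h, and 20.2, 21.6 and 19.7 CPM in uncut roots, and was also called at all 3 times. The 14 h and 16 h calls of both regions held without any 1 library, while the 2.5 h calls were lost without uncut replicate 1, 2 or 3 (adjusted p of 0.0906 to 0.138). The second region was looked up after the first had been seen, and reads of a transposon with copies elsewhere in the genome can be misplaced; their mapping was not examined.

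MP, the gene whose fusion marked the sorted nuclei, had 3 end regions. The region at 6891711 to 6891794 on chromosome 1 had 27.2, 14.3 and 10.4 CPM at 2.5 h, 11.3, 15.0 and 7.79 CPM at 14 h, and 22.4, 15.8 and 22.2 CPM at 16 h, against 6.76, 6.54 and 6.13 CPM in uncut roots. Every regenerating library was above every uncut library, with a wide spread at 2.5 h. The log2 fold change was 1.43 ± 0.50 at 2.5 h (edgeR adjusted p = 0.276), 0.78 ± 0.31 at 14 h (adjusted p = 0.190) and 1.59 ± 0.27 at 16 h (adjusted p = 0.00404), so only the last passed. That call was lost without uncut replicate 3 (adjusted p = 0.0502) and with all 12 libraries in 1 fit (adjusted p = 0.208). The other 2 MP regions, 337 and 254 bp wide, were not called at any time, with log2 fold changes of −0.68 to 0.88. The regenerating line carries an MP transgene as well as the gene itself, and the part of its reads was not tested.

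At 2.5 h, few transcription-end regions were higher than in uncut roots and many held no read. Of 17807 tested, 16 were called higher at an adjusted p under 0.05 (0.0899%, against 0.0463% of all regions tested) and 1001 lower (5.62%, against 7.71% of all regions tested). The median log2 fold change was −0.32 at transcript ends and −0.38 over all regions, and it depended on scaling, being −0.16 and −0.22 with DESeq2 size factors and −0.0023 and −0.06 with total counts. No read of any 2.5 h library fell in 898 (89.7%) of the 1001 lower regions. Without uncut replicate 1, 2 or 3, 0 regions were called higher and 502, 467 and 466 lower, against 1, 0 and 0 higher and 3943, 3514 and 3420 lower over all regions. Without 2.5 h replicate 1, 2 or 3 the counts went the other way, with 194, 214 and 270 higher and 2573, 2580 and 2099 lower, against 1108, 1211 and 1391 higher and 16988, 17679 and 14649 lower over all regions. DESeq2 called 58 higher and 702 lower, against 0.29% and 5.62% of all regions it tested.

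Apart from AT2G41600, the regions higher at 2.5 h were the ends of 14 genes. CBL2, a calcineurin B-like calcium sensor of the vacuolar membrane, had 20.5, 24.4 and 19.8 CPM in its end region at 2.5 h, 4.78, 9.49 and 10.1 CPM at 14 h, 8.39, 4.90 and 11.5 CPM at 16 h, and 3.72, 4.44 and 4.41 CPM in uncut roots. PP2A-4, a catalytic subunit of protein phosphatase 2A, had 17.8, 19.2 and 15.9 CPM at 2.5 h, against 3.40, 3.51 and 4.52 CPM in uncut roots. For both genes the 2.5 h libraries stood apart from the uncut ones, and for PP2A-4 the 14 h and 16 h libraries overlapped with uncut. The log2 fold changes at 2.5 h were 2.37 ± 0.37 for CBL2 (edgeR adjusted p = 0.0166) and 2.22 ± 0.43 for PP2A-4 (adjusted p = 0.0296). AT2G27790 reached 19.6, 33.1 and 34.6 CPM at 2.5 h, against 5.06, 5.51 and 4.95 CPM in uncut roots (2.49 ± 0.36, adjusted p = 0.0143).

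AT1G66930 stood above uncut roots at 2.5 h and below them at 14 h. Its end region, nearest to the start of the kinase-like gene AT1G66940, had 18.5, 24.8 and 20.3 CPM at 2.5 h, 2.73, 1.32 and 1.26 CPM at 14 h, 0.699, 1.63 and 5.75 CPM at 16 h, and 5.30, 4.49 and 5.32 CPM in uncut roots. It was called higher at 2.5 h (log2 fold change 2.08 ± 0.36, edgeR adjusted p = 0.0237) and was not called at 14 h (−1.54 ± 0.46, adjusted p = 0.101) or at 16 h (−1.05 ± 0.55, adjusted p = 0.262). LOJ, which encodes a pentatricopeptide repeat protein of lateral organ junctions, had 23.7, 14.6 and 14.8 CPM at 2.5 h, against 4.07, 4.68 and 4.3 CPM in uncut roots (2.04 ± 0.44, adjusted p = 0.0485). The others were the ends of the callose synthase gene CALS1, the flowering repressor MAF1, the glutathione peroxidase gene GPX1, NAC088, AT3G45710, AT3G03100, AT5G63630, AT5G10910 and AT5G03825, with log2 fold changes of 1.24 to 2.75. The calls of CBL2, PP2A-4, AT2G27790, AT1G66930 and LOJ were each lost without uncut replicate 1, without replicate 2 and without replicate 3 (adjusted p of 0.0724 to 0.269).

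At 14 h and 16 h more transcription-end regions were called higher than at 2.5 h, fewer were called lower, and the medians were close to 0. At 14 h, 129 of 18347 were higher (0.703%, against 0.766% of all regions tested) and 524 lower (2.86%, against 5.24%), with a median log2 fold change of 0.07 (0.04 over all regions). At 16 h, 365 of 18337 were higher (1.99%, against 3.07% of all regions tested) and 816 lower (4.45%, against 6.59%), with a median of 0.02 (0.01 over all regions). Fits of 2.5 h or 16 h against uncut or each other also test regions outside the 14 h set, which cannot be members. They count in every share over all regions of those fits. The higher calls at 16 h were 2.45% of promoter, 2.28% of exon, 2.81% of intron and 1.29% of intergenic regions. The lower calls were 2.90% of promoter regions, 2.1% of exon regions and 20.0% of intergenic regions at 14 h, and 4.62%, 3.16% and 23.4% in that order at 16 h, so in lower calls transcript ends were within the range of other genic classes. In higher calls they were below promoters, exons and introns at both times. At 14 h those classes had 0.988%, 0.751% and 1.04% higher, and intergenic regions 0.542%. No test of the difference between classes was made.

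These counts moved with the uncut libraries used and with the tool. Without uncut replicate 1, 2 or 3, edgeR called 4, 4 and 6 regions higher and 232, 252 and 263 lower at 14 h, and 10, 12 and 10 higher and 242, 240 and 258 lower at 16 h. Over all regions the same fits called 40, 38 and 48 higher and 2711, 2935 and 3058 lower at 14 h, and 766, 782 and 817 higher and 2543, 2746 and 2906 lower at 16 h. Leaving out 14 h replicate 1, 2 or 3 gave 853, 573 and 483 higher and 1213, 864 and 789 lower, against 4633, 3203 and 2535 higher and 10227, 7568 and 7110 lower over all regions. Leaving out a 16 h library gave 759, 636 and 808 higher and 1069, 1138 and 1121 lower, against 5245, 4834 and 5710 higher and 8400, 8585 and 8729 lower over all regions. With all 12 libraries in 1 edgeR fit, 2 of 17810 ends were higher and 192 lower at 14 h, and 2 higher and 131 lower at 16 h, against 18 and 2285 of all 98926 regions at 14 h and 16 and 1476 at 16 h. The 2 higher ends were those of AT2G41600 both times. DESeq2 called 1391 higher and 1554 lower at 14 h, against 7.17% and 11.6% of all regions it tested, and 1250 higher and 1431 lower at 16 h, against 7.59% and 9.84%. In the authors' deposited table, which covers regions outside the uncut set too, 5212 of the 25078 members (20.8%) were higher and 3030 (12.1%) lower at 14 h, against 19.9% and 14.5% of all its regions.

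The comparisons at 14 h and 16 h share the uncut libraries, so regions called in both are given as a description. There were 17 regions higher at both times, which is 13.2% of the 14 h list and 4.66% of the 16 h list, and 343 lower at both, which is 65.5% and 42.0%. Over all regions tested, 132 were higher at both times (16.9% of the 14 h list and 3.99% of the 16 h list) and 3813 lower (71.6% and 53.7%). Of the 343 lower ends, 135 had no read in any of the 9 regenerating libraries. WRKY12, a transcription factor gene known for holding back secondary wall formation in pith, had 13.3, 12.7 and 12.4 CPM in its end region at 14 h and 7.69, 16.9 and 12.3 CPM at 16 h, against 4.07, 4.24 and 4.25 CPM in uncut roots. At 2.5 h the same region had 0, 1.88 and 0 CPM, below the uncut libraries. Its log2 fold change was 1.58 ± 0.24 at 14 h (edgeR adjusted p = 0.00821) and 1.55 ± 0.34 at 16 h (adjusted p = 0.0154), and both calls were lost without uncut replicate 1, 2 or 3 (adjusted p of 0.0749 to 0.166).

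TBL22, COX6B and PID were also among those higher at both late times. TBL22, of a family that acetylates wall polysaccharides, had 6.15, 17.1 and 10.1 CPM at 14 h and 6.99, 16.3 and 4.11 CPM at 16 h, against 1.98, 2.98 and 3.12 CPM in uncut roots. COX6B, a subunit of mitochondrial cytochrome c oxidase, had 10.7, 15.0 and 11.4 CPM at 14 h and 9.09, 15.8 and 14.0 CPM at 16 h, against 3.68, 5.56 and 4.25 CPM in uncut roots. In both genes the late libraries lay above the uncut ones. PID, which encodes the PINOID kinase that phosphorylates PIN auxin carriers, had a log2 fold change of 1.24 ± 0.28 at 14 h (edgeR adjusted p = 0.0429) and 2.14 ± 0.38 at 16 h (adjusted p = 0.00489). Without an uncut library TBL22 and COX6B were lost at both times (adjusted p of 0.0982 to 0.264). TBL22 was also lost at 14 h without 14 h replicate 2 or 3 (adjusted p of 0.0574 and 0.0551) and at 16 h without 16 h replicate 2 (adjusted p = 0.211), where its log2 fold change was as low as 1.07. PID was chosen after its values were seen.

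Among the ends named for size at 14 h alone was that of ZIF1, a vacuolar transporter gene of zinc tolerance, which lies ahead of its relative ZIFL1. Its region had 18.5, 20.2 and 14.2 CPM at 14 h and 4.39, 5.32 and 6.72 CPM in uncut roots, with no overlap (log2 fold change 1.66 ± 0.27, edgeR adjusted p = 0.0115). The 2.5 h libraries, at 7.08, 6.01 and 0 CPM, and the 16 h libraries, at 5.60, 13.6 and 6.57 CPM, overlapped with uncut. At 16 h the end of XTH18, a xyloglucan endotransglucosylase/hydrolase gene of wall remodelling, had 7.69, 25 and 21.4 CPM, against 5.18, 4.29 and 5.65 CPM in uncut roots (1.82 ± 0.38, adjusted p = 0.0113). AT4G09855, whose nearest start is its own, had 22.4, 27.2 and 14.0 CPM at 16 h and 4.86, 4.59 and 5.49 CPM in uncut roots (2.09 ± 0.30, adjusted p = 0.00162). The AT4G09855 call held without any 1 library but was lost with all 12 libraries in 1 fit (adjusted p = 0.231), whereas XTH18 was lost without each uncut library in turn (adjusted p of 0.0980 to 0.137), and ZIF1 without uncut replicate 1 or 2 (adjusted p of 0.0888 and 0.0865).

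**Figure D2:**
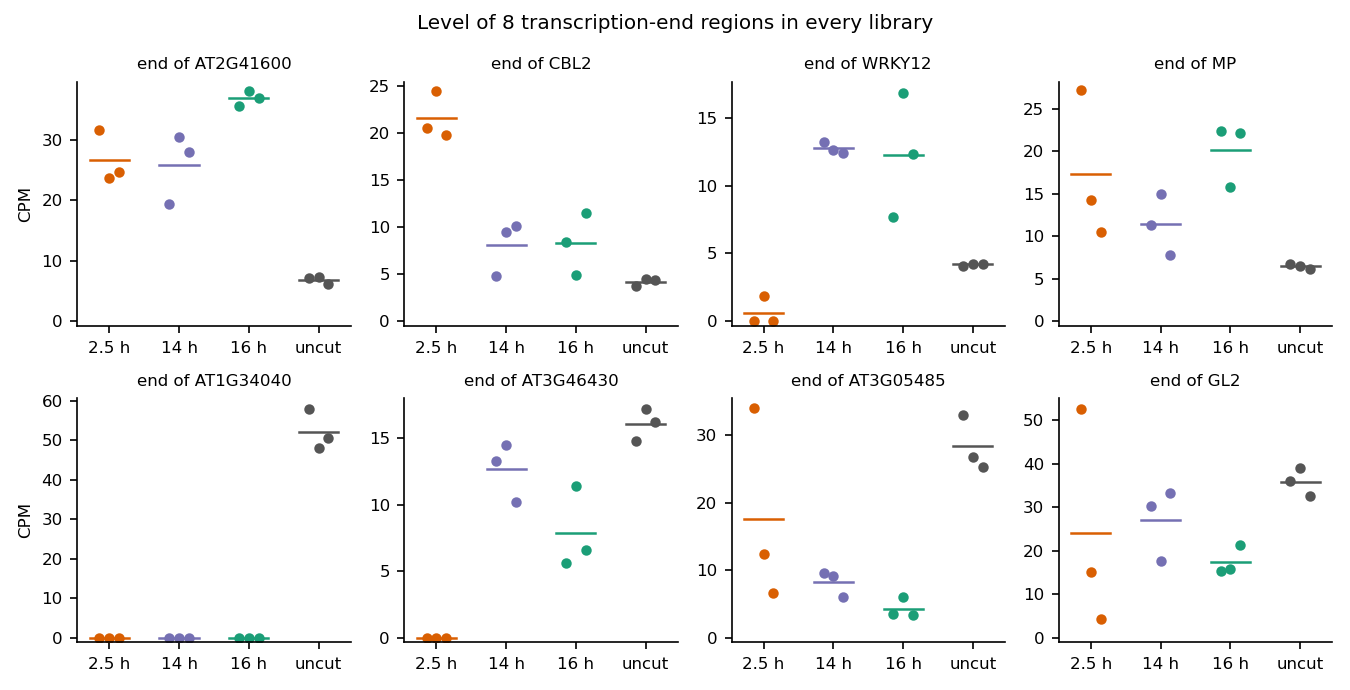
CPM per library in 8 transcription-end regions; points are libraries and groups run 2.5 h, 14 h, 16 h, uncut along each x axis. AT2G41600 stood at 19.4 to 38.1 CPM in the 9 regenerating libraries and at 6.08 to 7.27 CPM in uncut roots, and AT1G34040 was at 0 in all 9.

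A set of 140 transcription-end regions had no read in any of the 9 regenerating libraries. They made up 0.785% of the 17825 members in all 4 sets, against 1.56% of regions of every class and 6.59% of intergenic regions, and lay at the ends of 112 genes. In uncut roots their reads summed over 3 libraries had a median of 450.5 and ran from 30 to 3386. Every member in all 4 sets had reads in each uncut library, so that these 140 were read there follows from the choice of regions. Of the 140, 69 were on chromosome 1, 44 on chromosome 2 and 27 on chromosome 4, and none of the 3598 members on chromosome 3 or the 4075 on chromosome 5 was among them. Promoters, exons, introns and intergenic regions likewise had 0 such regions on chromosomes 3 and 5.

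The end region of AT1G34040 had the most uncut reads of the 140. It had 0 CPM in all 9 regenerating libraries, against 57.7, 48.0 and 50.6 CPM in uncut roots. Against a floor of 3 reads over a group, it was at least 154-fold lower at 2.5 h, at least 466-fold lower at 14 h and at least 77.9-fold lower at 16 h, bounds that follow the depth of each group. Such bounds, here and below, cover counting error only. BBX15, a B-box zinc finger gene, had 0 CPM in all 9 and 43.7, 39.1 and 32.4 CPM in uncut roots, and was at least 344-fold lower at 14 h. AT4G20703 had 40.4, 33.0 and 27.9 CPM in uncut roots and was at least 302-fold lower at 14 h. AT4G06970, AT1G36325, AT1G53815 and AT1G53950 were also at 0 in all 9, against 19.8 to 29.6 CPM in uncut roots. AT2G06906 kept a single low value of 0.376 CPM in 2.5 h replicate 2 and had 73.3, 58.1 and 50.7 CPM in uncut roots. CYP76C6, a cytochrome P450 gene, had 0 CPM at 2.5 h and 16 h and 0, 0.527 and 0.419 CPM at 14 h, against 32.7, 29.6 and 28 CPM in uncut roots.

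Lower calls in general were more frequent on chromosomes 1, 2 and 4, in promoters and exons as well as at transcript ends. At 14 h they were 4.4%, 4.08%, 1.16%, 3.96% and 1.02% of the transcription-end regions tested on chromosomes 1 to 5, and at 16 h 6.02%, 5.66%, 2.54%, 6.64% and 2.07%. At 2.5 h they were 7.29%, 6.91%, 3.39%, 7.78% and 3.37%. Chromosomes 3 and 5 were lowest in each comparison. At 14 h the promoter regions were lower in 3.98%, 4.4%, 1.18%, 4.77% and 0.855% of cases on chromosomes 1 to 5, and the exon regions in 2.96%, 2.53%, 1.12%, 3.33% and 0.862%. Higher calls of transcript ends did not follow this division at 14 h, with 0.566%, 0.967%, 0.674%, 0.505% and 0.834% on chromosomes 1 to 5. At 16 h they were 1.68%, 2.07%, 2.16%, 1.91% and 2.19%, with chromosomes 3 and 5 narrowly highest. With chromosomes 3 and 5 tested alone, 4 were higher and 20 lower at 14 h, 36 higher and 69 lower at 16 h, and 2 higher and 172 lower at 2.5 h. All regions on these chromosomes gave 25 higher and 213 lower calls of 43570 at 14 h, 595 higher and 521 lower of 45916 at 16 h, and 8 higher and 1248 lower of 44167 at 2.5 h. Those at 16 h and 2.5 h include regions outside the 14 h set. The line, Col-0 or MP::MP-GFP, changes with the group, and the part of sequence differences between the lines was not tested.

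**Figure D3:**
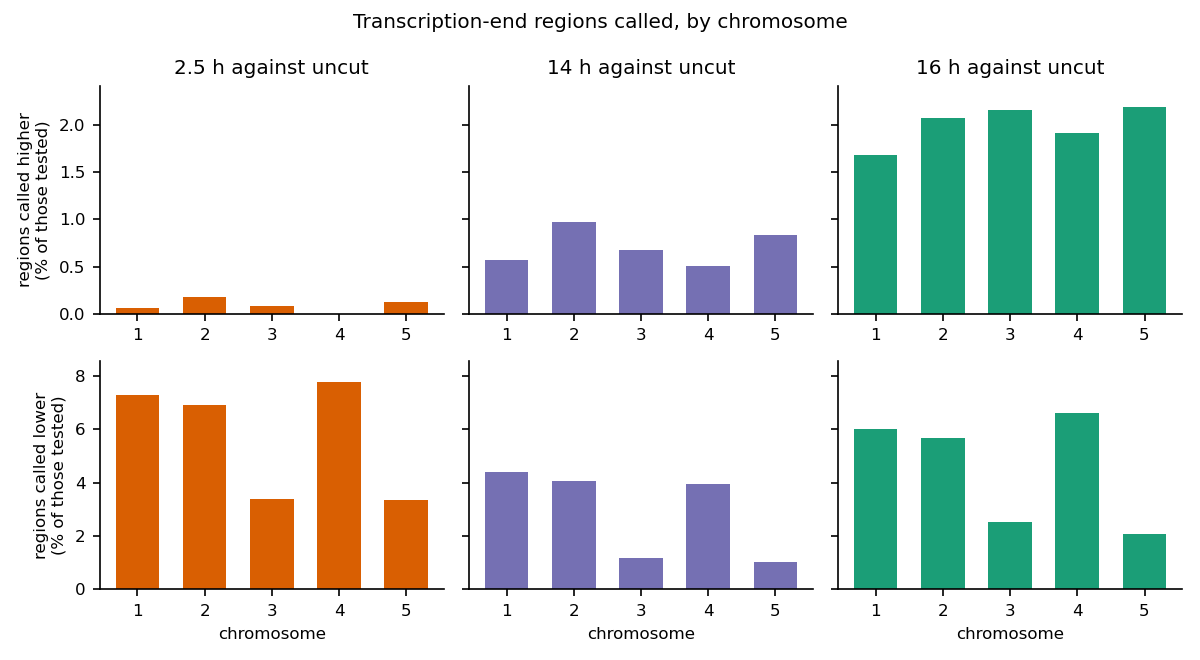
Transcription-end regions called higher (top row) and lower (bottom row) in each comparison with uncut roots, as a percentage of those tested on each of the 5 chromosomes. Lower calls at 14 h were 3.96% to 4.4% on chromosomes 1, 2 and 4 and 1.02% to 1.16% on chromosomes 3 and 5. The higher calls at 14 h do not show this division.

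On chromosomes 3 and 5 every member in all 4 sets kept a read in at least 1 regenerating library. The region at the end of the non-coding RNA gene AT3G05485 had 34.0, 12.4 and 6.60 CPM at 2.5 h, 9.57, 9.09 and 6.03 CPM at 14 h and 3.50, 5.99 and 3.29 CPM at 16 h, against 33.0, 26.7 and 25.3 CPM in uncut roots. At 14 h and 16 h all libraries were below uncut, while 2.5 h replicate 1 was above it. The log2 fold change was −1.82 ± 0.25 at 14 h (edgeR adjusted p = 0.00428) and −2.71 ± 0.33 at 16 h (adjusted p = 0.000593), and both held without any 1 library, though the 14 h call was lost with all 12 libraries in 1 fit (adjusted p = 0.228). AT3G46430 had no read at 2.5 h, where it was at least 47.4-fold lower, but 13.3, 14.5 and 10.2 CPM at 14 h, 5.60, 11.4 and 6.57 CPM at 16 h and 14.8, 17.2 and 16.2 CPM in uncut roots. The 2.5 h call of AT3G46430 was lost without each uncut library in turn (adjusted p of 0.202 to 0.224). Its bound of 47.4-fold covers counting error only, and replicates at 2.5 h spread more widely than that. Regions on these chromosomes were named after their values were seen.

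Of the 343 regions lower at both late times, 34 were on chromosomes 3 and 5. They included the ends of RPP13, a disease resistance gene against downy mildew, next to the actin gene ACT12, with log2 fold changes of −1.44 ± 0.22 at 14 h and −1.36 ± 0.23 at 16 h (edgeR adjusted p = 0.00702 and 0.00365). BZIP28, a membrane-bound transcription factor of the endoplasmic reticulum stress response, had log2 fold changes of −1.3 at 14 h and −1.09 at 16 h (adjusted p = 0.0247 and 0.0158). PHOT2, a blue light receptor, had −0.88 at 14 h and −0.98 at 16 h (adjusted p = 0.0292 and 0.0499). The end of AT5G13940, for which the nearest annotated start is that of the chalcone synthase gene TT4, had −0.80 at 14 h and −1.45 at 16 h (adjusted p = 0.0237 and 0.00302). RPP13 was also called lower at 2.5 h (−1.82 ± 0.38, adjusted p = 0.0389), while BZIP28, PHOT2 and AT5G13940 were not. At 16 h alone, TOPP2, a type 1 protein phosphatase, had 2.8, 3.27 and 4.11 CPM, against 15.4, 14.2 and 15.7 CPM in uncut roots (−2.20 ± 0.34, adjusted p = 0.00245), a call that held without any 1 library but was lost with all 12 libraries in 1 fit (adjusted p = 1.00).

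The 11 lists, of genes for wounding, hormones, root cell types, the cell cycle, leaf photosynthesis and antisense loci, held 156 genes, of which 83 had 120 end regions. At 2.5 h, 0 of 76 tested were higher and 4 lower, at 14 h 2 of 80 were higher and 1 lower, and at 16 h 2 of 80 were higher and 5 lower. Of all regions tested, 0.0463% were higher and 7.71% lower at 2.5 h. The shares were 0.766% higher and 5.24% lower at 14 h, and 3.07% higher and 6.59% lower at 16 h. Those at 2.5 h and 16 h include regions outside the 14 h set. With so few calls beside these shares, nothing is read from the counts of the lists. Over the wound and regeneration transcription factors, 7 regions were tested, with medians of 0.33, 0.30 and 0.22 on the log2 scale at 2.5 h, 14 h and 16 h. Those of the root stem cell niche list, with 3 regions, were −0.47, 0.08 and −0.14, and none was called.

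LBD29, a lateral organ boundaries domain factor of lateral root and callus formation, was the wound-list end called higher at 14 h. Its region had 0, 0 and 22.5 CPM at 2.5 h, 17.5, 12.8 and 8.55 CPM at 14 h and 9.09, 6.53 and 16.4 CPM at 16 h, against 4.39, 4.24 and 4.36 CPM in uncut roots. The log2 fold change was 1.55 ± 0.33 at 14 h (edgeR adjusted p = 0.0341) and 1.22 ± 0.37 at 16 h (adjusted p = 0.0654), and the 14 h call was lost without uncut replicate 1, 2 or 3 (adjusted p of 0.169 to 0.195). PLT7, a PLETHORA factor of regeneration and organ initiation, was lower at 16 h, with 27.3, 26.1 and 24.6 CPM against 50.6, 41.8 and 44.3 CPM in uncut roots (−0.83 ± 0.22, adjusted p = 0.0378). PLT3 was not called at 14 h (−0.61 ± 0.21, adjusted p = 0.145) or 16 h (−0.59 ± 0.33, adjusted p = 0.295).

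Of the jasmonate genes, OPR3, the reductase that makes the jasmonate precursor, had 0 CPM in all 9 regenerating libraries, against 6.44, 8.29 and 9.79 CPM in uncut roots. It was at least 24.1-fold lower at 2.5 h, 73.1-fold lower at 14 h and 12.2-fold lower at 16 h, and it is on chromosome 2, among the 140 regions without a read. JAZ9, a repressor of jasmonate signalling, had no read at 2.5 h, where it was at least 17.3-fold lower, and 13.0, 5.01 and 5.86 CPM at 14 h, 13.3, 4.35 and 4.93 CPM at 16 h and 5.02, 5.37 and 7.15 CPM in uncut roots. The late libraries of JAZ9 overlapped with uncut. The bounds for OPR3 and JAZ9 cover counting error only. Without an uncut library the 2.5 h call of OPR3 was lost (adjusted p of 0.120 to 0.181), and without uncut replicate 1 or 2 that of JAZ9 (adjusted p of 0.0582 and 0.0625).

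Among hormone carriers and receptors, the auxin influx carrier LAX2 had 39.9, 34.3 and 32.9 CPM at 16 h and 67.3, 58.2 and 58.0 CPM in uncut roots (log2 fold change −0.80 ± 0.23, edgeR adjusted p = 0.0463). AHK2, a cytokinin receptor kinase, had 14.0, 3.81 and 7.39 CPM at 16 h and 23.4, 20.9 and 19.9 CPM in uncut roots (−1.42 ± 0.37, adjusted p = 0.0328). PIN2, an auxin efflux carrier, had 24.7, 12.9 and 14.2 CPM at 14 h and 7.31, 7.32 and 5.81 CPM in uncut roots and just missed the threshold (1.31 ± 0.31, adjusted p = 0.0524). The type A response regulators ARR16 at 14 h (1.32 ± 0.30, adjusted p = 0.0469) and ARR7 at 16 h (1.61 ± 0.46, adjusted p = 0.0488) were called higher. The other 2 tested end regions of ARR7 were not called at 16 h, with log2 fold changes of −0.01 (adjusted p = 0.990) and 0.43 (adjusted p = 0.468).

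Of cell type and cell cycle genes, GL2, a homeodomain factor of non-hair epidermal cells, had 15.4, 15.8 and 21.4 CPM at 16 h, against 36.1, 39.0 and 32.6 CPM in uncut roots (log2 fold change −1.08 ± 0.24, edgeR adjusted p = 0.0160). Its 2.5 h libraries spread from 4.4 to 52.7 CPM. CDKB1;2, a mitotic cyclin-dependent kinase, had no read at 2.5 h (at least 14.8-fold lower, by counting error only) and 6.30, 9.25 and 9.86 CPM at 16 h, against 3.95, 5.85 and 5.27 CPM in uncut roots. This region was not called at 14 h (−0.53, edgeR adjusted p = 0.802) or 16 h (0.73, adjusted p = 0.235). Another end region of CDKB1;2 was not called at any time. Its log2 fold changes were −1.06 at 2.5 h, 1.08 at 14 h and 1.12 at 16 h. WOX5, a quiescent centre gene, and PLT1 were not called at any time. The leaf photosynthesis list had 7 regions, of which 1 was called, at LHCB1.3 at 2.5 h, with near-identical copies next to it and 119 uncut reads in all. Without each uncut library in turn, PLT7, LAX2, AHK2, ARR16, ARR7 and GL2 were lost as calls (adjusted p of 0.0800 to 0.276), and LHCB1.3 was no longer tested. Each of these 6 calls was also lost with all 12 libraries in 1 fit. PLT7, LAX2 and AHK2 were lost without 16 h replicate 3 too (adjusted p of 0.0512, 0.0630 and 0.0501), ARR16 without 14 h replicate 2 (adjusted p = 0.0521), and ARR7 without 16 h replicate 1 or 2 (adjusted p of 0.178 and 0.0642). LAX2 was lost with DESeq2 size factors and with total counts as well, and the log2 fold change of AHK2 ran from −2.05 to −0.99 over the alternatives.

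**Figure D4:**
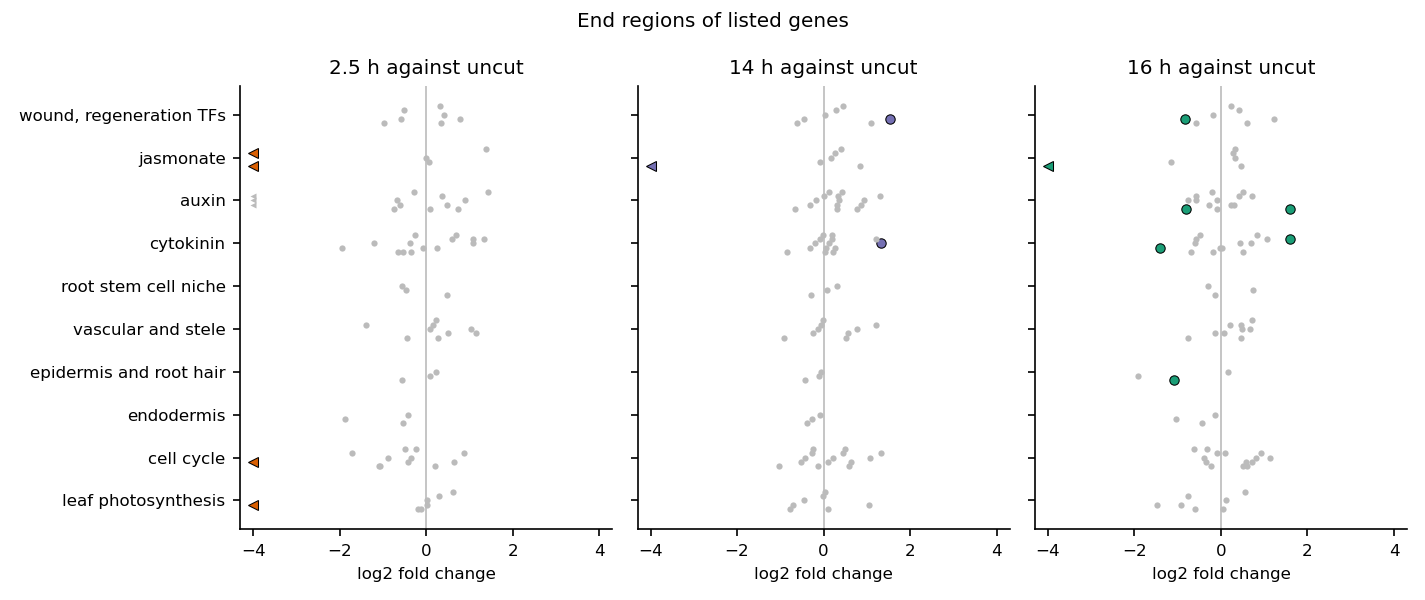
Log2 fold change against uncut roots of each tested transcription-end region of the gene lists, by list and comparison; filled points are called and values below −4 are drawn as triangles at the edge. In the 3 comparisons, 4, 3 and 7 regions were called, of 76, 80 and 80 tested.

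Fold changes at the late times went with region width, at transcript ends as in promoters and exons. In 4 bins of equal number from narrowest to widest, the median log2 fold change was 0.31, 0.21, 0.03 and −0.18 at 14 h and 0.28, 0.16, −0.01 and −0.23 at 16 h, while at 2.5 h it was −0.28, −0.29, −0.30 and −0.37. Other classes had a like order at 14 h, with medians of 0.35, 0.28, 0.11 and −0.12 in promoter regions and 0.31, 0.24, 0.06 and −0.15 in exon regions. Lower calls were 2.03%, 1.48%, 1.98% and 5.93% at 14 h and 2.79%, 2.6%, 3.56% and 8.86% at 16 h in the same order, and higher calls at 16 h were 3.40%, 2.23%, 1.57% and 0.764%. At 2.5 h the lower calls ran the other way, at 12%, 5.55%, 2.99% and 1.95%. Wide regions also hold more uncut reads, which enter each fold change, and depth differs between groups; their parts were not tested.

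**Figure D5:**
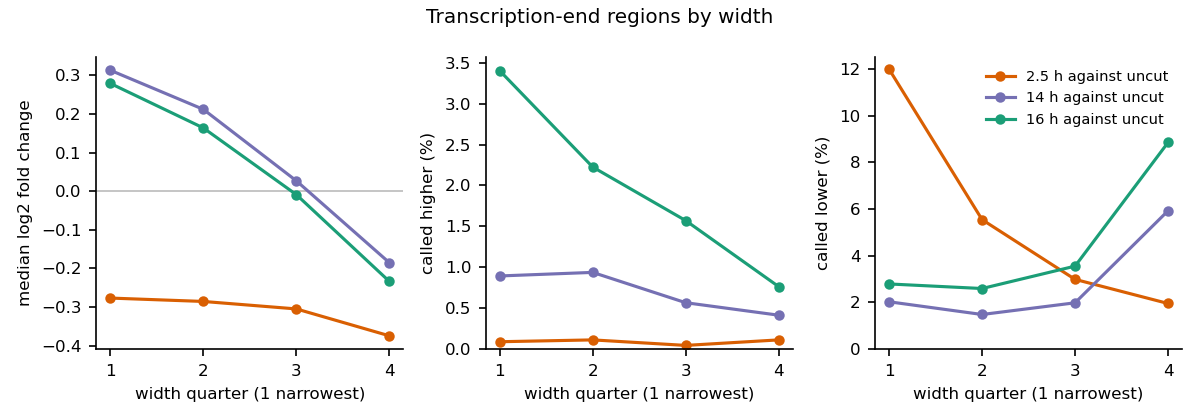
Median log2 fold change, percentage called higher and percentage called lower of transcription-end regions in 4 bins of width, from narrowest to widest, for 2.5 h, 14 h and 16 h against uncut roots. At 14 h the median was 0.31 in the narrowest bin and −0.18 in the widest, and at 2.5 h the narrowest bin had the most lower calls, 12%.

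Shares of lower calls were also set beside the arrangement of the next gene, with no test. Regions in tandem with the next gene were called lower in 6.57%, 3.40% and 5.01% of cases at 2.5 h, 14 h and 16 h, and convergent ones in 5.29%, 2.53% and 4.20%. Where the nearest start was the gene's own, the shares were 8.13%, 3.78% and 5.67%, and where it was the start of another gene upstream, 4.22%, 2.40% and 3.77%. As a description across genes, which share libraries and are not independent, the end's log2 fold change at 14 h correlated with that of the gene's own promoter at Pearson r = 0.38 and Spearman rho = 0.23 over 6742 genes. With the promoter of the next gene in tandem, r was 0.52 and rho 0.28 over 2265 genes. At 16 h these r values were 0.34 and 0.47, and at 2.5 h 0.15 and 0.17.

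By CPM, which does not allow for width, the highest ends in uncut roots were those of ENSRNA049451242-T1 and of 3 genes in a known insertion of organelle DNA. ENSRNA049451242-T1 on chromosome 3, at 14200042 to 14200159, had 252, 294 and 381 CPM at 2.5 h, 199, 192 and 192 CPM at 14 h, 199, 207 and 253 CPM at 16 h, and 664, 561 and 493 CPM in uncut roots. All regenerating libraries were below all uncut ones, and the call was made at 14 h (log2 fold change −1.59 ± 0.13, edgeR adjusted p = 0.00185) and at 16 h (−1.41 ± 0.31, adjusted p = 0.0148), the second being lost without each uncut library in turn (adjusted p of 0.0888 to 0.0998). AT2G07689, AT2G05355 and AT2G07637 lie between 3.2 and 3.7 Mb of chromosome 2, where a copy of the mitochondrial genome is inserted. Of these, AT2G07689 had 77.8, 40.6 and 81.4 CPM at 2.5 h, 146, 90.9 and 129 CPM at 14 h and 104, 212 and 108 CPM at 16 h, against 137, 388 and 221 CPM in uncut roots, a spread within the uncut group that covers the other groups in part. None of the 3 was called. Reads of mitochondrial DNA cannot be told from reads of the insertion.

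Of the 25078 members, 6729 lay outside the uncut count set. Their median width was 47 bp, against 141 bp for the 18349 members in the uncut set. From whole reads recovered from the authors' normalized columns, the median of these regions was 4.81 to 5.59 CPM in the 14 h libraries and 0.973 to 1.33 CPM in the uncut libraries. For members in the uncut set it was 5.76 to 6.22 CPM at 14 h and 6.90 to 7.04 CPM in uncut roots. Tested on recovered reads over all 14 h regions, 4940 members were higher and 2335 lower, against 19% and 11.8% of all regions so tested. Of these, 4800 of the higher and 29 of the lower lay outside the uncut set, and 140 and 2306 in it. Which set a region is in depends on where peaks were called, so this contrast is fixed by the choice of regions and is no test of a difference.

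Between regenerating times no transcription-end region was called in edgeR fits of the 2 groups compared, while a fit of all 12 libraries made calls against 2.5 h. Of 17153 tested at 14 h against 2.5 h, 0 passed (0% of all regions tested in either direction) and 818 had an unadjusted p under 0.05, with a median log2 fold change of 0.39, the same as over all regions. That median was 0.26 with DESeq2 size factors and 0.10 with total counts. At 16 h against 2.5 h, 0 of 13684 passed (0% of all regions tested) and 291 had an unadjusted p under 0.05, with a median of 0.21, or 0.17 and 0.03 under those scalings. At 16 h against 14 h, 0 of 17829 passed (0.00104% of all regions tested were higher and 0% lower) and 581 had an unadjusted p under 0.05. With all 12 libraries in 1 edgeR fit, 728 of 17810 were higher and 8 lower at 14 h against 2.5 h, against 4401 and 94 of all 98926 regions. In that fit 689 were higher and 14 lower at 16 h against 2.5 h, against 4100 and 66 of all regions, and 0 either way at 16 h against 14 h. DESeq2 called 243 higher and 8 lower at 14 h against 2.5 h, against 1.47% and 0.0421% of all regions it tested, 116 higher and 0 lower at 16 h against 2.5 h, against 0.721% and 0.00295%, and 0 in either direction at 16 h against 14 h, against 0.001% each way. These libraries share line and sort, and the number of calls between them thus depended on the fit.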

How the data were processed

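Open chromatin was measured by ATAC-seq in 12 libraries. The authors deposited whole-number read counts per region and library, used as they stand, and a 14 h table with normalized signal, log2 fold changes, p-values and the annotation of each region and its distance to a start. The submitters' processing notes name Bowtie2, SAMtools, MACS2, DESeq2, HOMER and TAIR10, with settings not given in the sources used here, so their effect was not examined. The deposited normalized signal gave whole reads within a tolerance of 0.01 and served for an alternative added after the data were seen. The recovered uncut reads equalled the uncut counts in 97.3% to 97.4% of 101674 shared regions, and 2 lines of the table name no region.

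Counts of regions with identical coordinates in both groups' sets were tested with edgeR 4.0.16 in R 4.3.3 (TMM, filterByExpr, quasi-likelihood, Benjamini-Hochberg over all regions tested, adjusted p under 0.05) after a check on simulated data. Each fit held the 2 groups compared. An SE is the log2 fold change over the square root of F. CPM uses TMM over the 12 libraries. Shares of reads were compared by exact permutation, with DESeq2 1.42.0 and other settings as alternatives. Floors are 3 reads over a group and cover counting error only.

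Named regions are, 1 per gene, the 6 largest calls in each direction against uncut roots with groups apart and a level above the median, the 8 in each direction passing at both late times, the 6 highest in uncut roots, up to 3 per gene list, and MP; others are said to be chosen after their values were seen. Members and lists were chosen with earlier results of these data known. RefSeq (TAIR10.1) gave gene names and neighbours and matched 24815 of 25078 regions.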

Additional observations from a re-analysis of the deposited data

How the results depend on the processing

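Counts of transcription-end regions called depended on the settings. With DESeq2 there were 58 higher at 2.5 h against uncut, 1391 higher and 1554 lower at 14 h, 1250 higher and 1431 lower at 16 h, 243 higher and 8 lower at 14 h against 2.5 h, and 116 higher at 16 h against 2.5 h. With all 12 libraries in 1 fit there were 8 higher at 2.5 h against uncut, 2 higher and 192 lower at 14 h, 2 higher and 131 lower at 16 h, 728 higher and 8 lower at 14 h against 2.5 h, and 689 higher and 14 lower at 16 h against 2.5 h. With chromosomes 3 and 5 alone there were 2 higher and 172 lower at 2.5 h, 4 higher and 20 lower at 14 h, and 36 higher and 69 lower at 16 h. Total counts gave 44 higher at 2.5 h. Recovered reads over all 14 h regions gave 4940 higher and 2335 lower at 14 h, of which 4800 and 29 lay outside the uncut set. Over all regions, total counts gave 224 higher at 2.5 h and the fit of all 12 libraries gave 43. DESeq2 called 7289 higher and 11786 lower of all 101676 regions at 14 h, and 8181 and 10614 of 107842 at 16 h. Counts or shares over all regions under the other settings are given with the results above. Leaving out 1 library gave 0 to 270 higher and 466 to 2580 lower at 2.5 h, 4 to 853 and 232 to 1213 at 14 h, and 10 to 808 and 240 to 1138 at 16 h. Fewer libraries, or fewer or more regions, are part of several of these settings. For the others the cause was not tested.

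With the replicate number as a block (replicate block), 0 were higher and 0 lower at 2.5 h, 12 higher and 314 lower at 14 h, 28 higher and 442 lower at 16 h, and 0 either way between regenerating times. Over all regions these fits called 0 either way at 2.5 h, 99 higher and 3539 lower at 14 h, and 952 higher and 4551 lower at 16 h. At 14 h against 2.5 h they called 1 higher. Deviations of same-numbered libraries correlated at −0.0345 to 0.0102. With few reads per region in the 2.5 h and 16 h libraries, this cannot tell whether the numbers pair libraries.

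With each library's own count set, the difference in share of reads became −1.27 percentage points at 2.5 h and −0.19 at 16 h against uncut (1.90 at 14 h), 3.18 at 14 h against 2.5 h and 1.08 at 16 h against 2.5 h. The log2 ratio of ends to promoters, regenerating against uncut, was 0.0063 on chromosomes 3 and 5, and −0.0118 to 0.0103 when 1 library was left out; at 16 h it was −0.0202 to 0.0162. For named regions, 920 alternatives left the call as it was, 290 ended it and 0 reversed it. Where a group had no read, depth allowed only a bound on the fold.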
